A study of Citrus unshiu with 2 samples.

Results

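AP2/ERF, WRKY and NAC proteins are 3 plant-specific families of transcription factors, and 41 genes of these families were compared between a watered and a water-limited stem library of satsuma mandarin (Citrus unshiu). The members were chosen by their Pfam protein domain text in the authors' annotated table of 2568 genes: AP2 domain for 17, WRKY DNA-binding domain for 14 and No apical meristem domain for 10. The text matched 44 genes, of which 3 were left out by identifier. The full table covers 23159 genes, and family members outside the 2568 annotated genes were not analysed here. Because the name of the annotated table calls its genes differential, a place in it already depends in part on how a gene behaved in these libraries.

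Both groups were wild-type trees in root-restricting containers in a plastic tunnel, under natural day length, and mature stems of shoots were taken at Day 75. The control group had normal water. For the light drought group, soil was left to dry to about 15% moisture and this regime lasted 75 days. There was 1 library for each group, 20 trees were set aside for each, and how many trees entered a library is not given in the labels. With 1 library per group, no difference below has a replicate check and no test of the conditions was possible.

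AP2/ERF factors carry a DNA-binding domain shared by the ethylene response factors, which bind GCC-box promoters, and the DREB factors, which bind the dehydration-responsive element of drought and cold genes. WRKY factors bind W-box elements and are best known for defence, salicylic acid responses and leaf senescence. NAC factors share an N-terminal DNA-binding domain and act in organ boundaries, wood and vessel formation, senescence and stress. Many members of all 3 families respond to drought or abscisic acid in other plants, and some are repressors.

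Levels are given as RPKM, which scales reads to exon length and to a total of reads for the library, so that levels of different genes can be set side by side. The log2 ratio is log2 of light drought RPKM plus 0.5 over control RPKM plus 0.5, and below 0 means lower in light drought. The counting interval is an exact 95% interval of the log2 RPKM ratio, computed from reads without the added 0.5, and covers counting error only. In a gene with few reads it can therefore lie beyond the log2 ratio. The interval also takes each read as independent. Most read counts of the members were even, as would arise if both mates of a read pair were counted. In that case, which was not tested, the intervals would be too narrow. The totals by which the libraries were scaled, recovered from the RPKM values, were 32856618 for the control and 31760704 for light drought. Whether they count reads in genes or all mapped reads is not given. Every member had reads in both libraries, and the lowest count was 3.

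The families differed in the sign of most of their ratios. Of the 17 AP2/ERF genes, 14 had a log2 ratio below 0, while 11 of the 14 WRKY genes had one above 0. The 10 NAC genes were divided, with 6 above 0 and 4 below. The median log2 ratio was -0.79 for all 17 AP2/ERF genes, 0.43 for all 14 WRKY genes and 0.24 for all 10 NAC genes, beside -0.22 for all 2568 annotated genes. Among genes with an RPKM of at least 1 in either library, 49.6% of the full table and 56.4% of the annotated table had ratios below 0, against 13 of 16 AP2/ERF, 2 of 10 WRKY and 3 of 5 NAC genes. In stem tissue, fewer cells of a type and less RNA per cell cannot be told apart.

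This minimum was thus reached by 31 of the 41 members. Of these 31, 8 were at least 2-fold lower in light drought and 1 was at least 2-fold higher. Over all 15654 genes that reached this minimum the shares were 2.12% lower and 0.882% higher, together 3.00%. In the 2055 such genes of the annotated table, from which the members come, they were 14.9% lower and 5.99% higher, together 20.9%, so a count of 9 in 31 says little about the families as a whole. Among the 9, 5 had an RPKM of at least 1 in both libraries. The other 4 passed the minimum only through the library where they were higher, 3 in the control and 1 in light drought, and for such genes a difference is built into the minimum.

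With 0.5 added, all 8 lower genes were AP2/ERF or NAC genes, and the higher gene was a WRKY gene. This division depends on the value added: with 0.1 in place of 0.5, 2 WRKY genes were also lower (Cs2g10310 at -1.18 and Cs9g03310 at -1.04) and the AP2/ERF gene Cs5g29870 was also higher (1.03). The lower genes comprised 6 of the 16 AP2/ERF genes and 2 of the 5 NAC genes that reached the minimum. The median log2 ratio of the genes that reached it was -0.81 for AP2/ERF and 0.49 for WRKY. For NAC it was -0.42, the opposite sign to the median of all 10 NAC genes, so no direction is given for that family. Among members at the minimum, the log2 ratios nearest to 2-fold lower were -1.14 for Cs8g10700, past it, and -0.92 for orange1.1t00506, short of it.

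**Figure D1:**
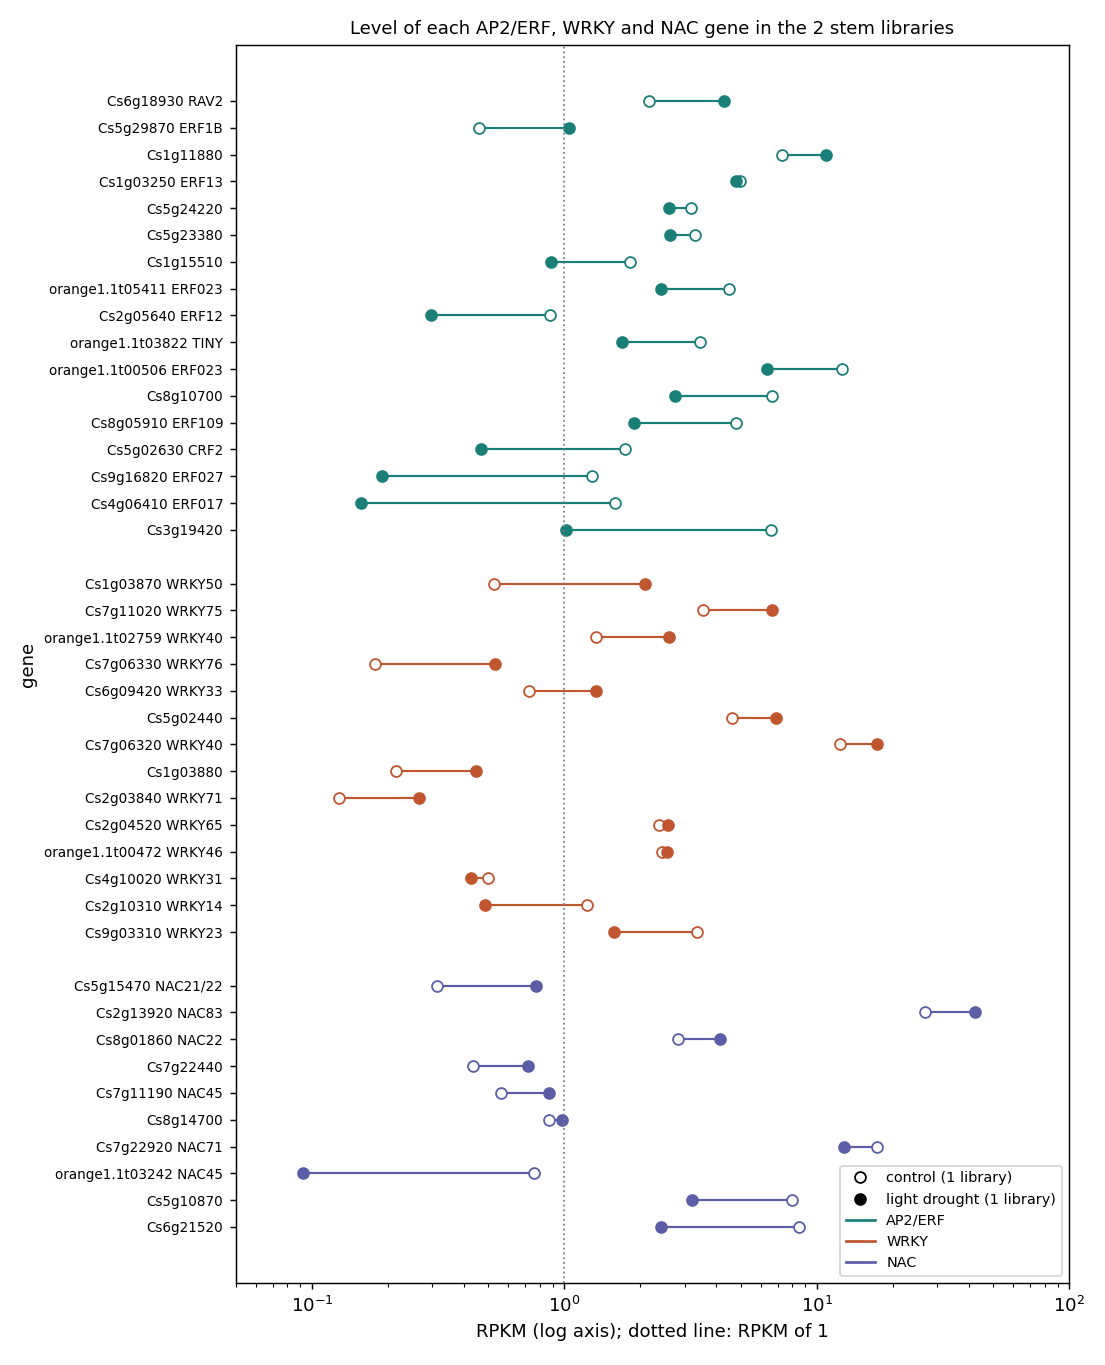
RPKM of the 41 genes on a log axis, 1 row per gene, grouped by family and ordered by log2 ratio; open circles are the control library, filled circles the light drought library, and the dotted line is an RPKM of 1. Filled circles lie to the left of open ones in 14 of 17 AP2/ERF rows and to the right in 11 of 14 WRKY rows.

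Cs3g19420, an AP2/ERF gene without a name in the files, had the lowest log2 ratio of the 41 with 0.5 added. This gene has 1 exon of 1367 bases and lies on the minus strand of chromosome 3, from 22685826 to 22687192 in the files' coordinates, for which no genome build is named. Its level was 6.59 RPKM from 296 reads in the control and 1.01 from 44 reads in light drought. The log2 ratio was -2.23, which is 4.68-fold lower on the scale with 0.5 added, with a counting interval from -3.19 to -2.24. Both levels passed the minimum, so this difference does not depend on it. The rank does depend on the value added. By RPKM alone, Cs4g06410 (-3.34), orange1.1t03242 (-3.04) and Cs9g16820 (-2.76), each with few light drought reads, lay below Cs3g19420 (-2.70).

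The AP2/ERF genes described as ethylene-responsive transcription factors numbered 10, and 9 of them had a log2 ratio below 0. The description is a family name and does not make each an ethylene-responsive gene. ERF017 (Cs4g06410, chromosome 4, 3955295 to 3956096) stood at 1.59 RPKM in the control and 0.157 in light drought, from 42 and 4 reads. Its log2 ratio was -1.67, with a wide counting interval of -5.28 to -1.88. ERF027 (Cs9g16820, chromosome 9, 16238147 to 16239138) stood at 1.29 and 0.190 RPKM, from 42 and 6 reads, with a log2 ratio of -1.37. Both genes passed the minimum through the control library alone, and few light drought reads stand behind their size.

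CRF2 (Cs5g02630, chromosome 5, 1192799 to 1194945) belongs by name to the cytokinin response factors, which in Arabidopsis act downstream of cytokinin in leaf and cotyledon development. It stood at 1.74 RPKM in the control and 0.469 in light drought, from 123 and 32 reads, with a log2 ratio of -1.21 and a counting interval of -2.50 to -1.32. ERF109 (Cs8g05910, chromosome 8, 3445122 to 3446651) is named after an Arabidopsis factor of redox stress and jasmonate signalling. Its levels were 4.77 and 1.89 RPKM, from 240 and 92 reads, and the log2 ratio was -1.14 with a counting interval of -1.70 to -0.98. The unnamed AP2/ERF gene Cs8g10700 (chromosome 8, 9963638 to 9966951) had the same log2 ratio of -1.14, at 6.66 RPKM in the control and 2.75 in light drought. All 3 were lower by more than 2-fold with 0.5 added, and the counting intervals of ERF109 and Cs8g10700 just crossed 2-fold. CRF2 passed the minimum through the control alone. With 1 added in place of 0.5, the log2 ratios of CRF2 (-0.90), ERF109 (-0.997) and ERF027 (-0.94) no longer reached 2-fold.

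The remaining AP2/ERF genes with ratios below 0 did not reach 2-fold once 0.5 was added. By RPKM alone, 3 of them did, namely TINY and Cs1g15510, each with a log2 RPKM ratio of -1.03, and ERF12 with one of -1.57. A pair of genes described as ERF023 shared one protein record in the annotation and lie on unplaced sequence. Of these, orange1.1t00506 stood at 12.5 RPKM in the control, the highest control level of the family, and 6.37 in light drought, with a log2 ratio of -0.92. The second, orange1.1t05411, stood at 4.50 and 2.42 RPKM, with a log2 ratio of -0.78. If the copies are near-identical, reads could have been divided between them, so their separate levels are uncertain. The TINY gene (orange1.1t03822), named after an Arabidopsis DREB-type factor whose overexpression dwarfs plants, stood at 3.46 and 1.70 RPKM, with a log2 ratio of -0.85. The unnamed Cs1g15510 stood at 1.81 and 0.887 RPKM, with a log2 ratio of -0.74. ERF12 (Cs2g05640) stayed under the minimum in both libraries, at 0.880 and 0.296 RPKM. The counting interval lay below 0 for each of these 5 genes.

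AP2/ERF genes with ratios near or above 0 included those with a second domain. Cs5g23380 and Cs5g24220, both annotated with a BED zinc finger beside the AP2 domain and sharing one protein record, stood at 3.29 and 3.16 RPKM in the control and 2.62 and 2.60 in light drought. Their log2 ratios were -0.28 and -0.24, and both have 5 exons. ERF13 (Cs1g03250) was almost level, at 4.98 RPKM in the control and 4.77 in light drought, with a counting interval of -0.42 to 0.30. RAV2 (Cs6g18930, chromosome 6, 18917657 to 18919712) had the highest log2 ratio of the family, 0.85. This factor joins an AP2 to a B3 domain, and its Arabidopsis namesake, also called TEMPRANILLO 2, represses flowering. It stood at 2.16 RPKM from 146 control reads and 4.29 from 280 light drought reads, with a counting interval of 0.69 to 1.29. By RPKM alone its log2 ratio of 0.99 was below that of Cs5g29870 (1.19).

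A further pair of AP2/ERF genes had ratios above 0. The unnamed Cs1g11880, the most abundant of the family in light drought, stood at 7.25 RPKM in the control and 10.9 in light drought, with a log2 ratio of 0.55. ERF1B (Cs5g29870) is named after an Arabidopsis factor on which ethylene and jasmonate signals meet in defence. It stood at 0.459 and 1.04 RPKM, from 20 and 44 reads, with a log2 ratio of 0.69. ERF1B passed the minimum through light drought alone.

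WRKY50 (Cs1g03870, chromosome 1, 3087282 to 3091014) was the one member at the minimum that was at least 2-fold higher in light drought with 0.5 added. The Arabidopsis gene of this name acts in salicylic acid and jasmonate defence. It stood at 0.525 RPKM in the control and 2.08 in light drought, but on a short model of 348 bases, so only 6 and 23 reads stand behind these levels. The log2 ratio was 1.33 and the counting interval ran from 0.65 to 3.57. A second WRKY model, Cs1g03880, starts 110 bases beyond it on the same strand with no gene model between them. It held 3 and 6 reads, and its counting interval of -1.18 to 3.68 included no change. By RPKM alone, members other than WRKY50 were also more than 2-fold higher, namely ERF1B (log2 RPKM ratio 1.19) and genes under the minimum, among them NAC21/22 (1.31) and WRKY76 (1.58).

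WRKY40 is an Arabidopsis regulator of defence and of abscisic acid responses, mostly as a repressor. In the annotation source used for names here, 2 genes carry this description. Cs7g06320 (chromosome 7, 3696558 to 3698483) was the most abundant WRKY member, at 12.4 RPKM from 681 control reads and 17.3 from 916 light drought reads. Its log2 ratio was 0.46 with a counting interval of 0.33 to 0.62. The other, orange1.1t02759 on unplaced sequence, stood at 1.33 and 2.59 RPKM, with a log2 ratio of 0.76. Both had higher levels in light drought, each by less than 2-fold. WRKY76 (Cs7g06330), which a second annotation source describes as WRKY40, is the next gene model after Cs7g06320, 7308 bases away on the same strand. It stood at 0.177 and 0.531 RPKM, from 10 and 29 reads, under the minimum in both libraries.

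WRKY75 (Cs7g11020, chromosome 7, 7242159 to 7244955), in Arabidopsis a promoter of leaf senescence and a regulator of phosphate starvation responses, stood at 3.54 RPKM in the control and 6.66 in light drought. These levels rest on 131 and 238 reads. The log2 ratio was 0.82 with a counting interval of 0.60 to 1.23. WRKY33 (Cs6g09420), in Arabidopsis a main factor of defence against necrotrophic fungi, stood at 0.725 and 1.34 RPKM, with a log2 ratio of 0.58. It passed the minimum through light drought alone.

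Other WRKY genes were level or lower. WRKY46 (orange1.1t00472), in Arabidopsis a factor of drought and brassinosteroid responses, stood at 2.45 and 2.55 RPKM. WRKY65 (Cs2g04520) stood at 2.38 and 2.58 RPKM, and the counting intervals of both genes included no change. WRKY23 (Cs9g03310), an auxin-responsive gene of root development in Arabidopsis, had the lowest ratio of the family with 0.5 added. It stood at 3.36 RPKM in the control and 1.58 in light drought, with a log2 ratio of -0.89. WRKY14 (Cs2g10310) stood at 1.23 and 0.486 RPKM, with a log2 ratio of -0.81, but its log2 RPKM ratio of -1.34 was lower than the -1.09 of WRKY23. WRKY71 (Cs2g03840) and WRKY31 (Cs4g10020) stayed under 0.5 RPKM in both libraries, with counting intervals that included no change. The Arabidopsis WRKY71 is known to advance flowering, and here it held only 4 control and 8 light drought reads.

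Exon bases of 3 WRKY genes overlap genes on the opposite strand, and the sources do not say whether strand was used in counting. Cs5g02440 shared 3191 of its 3464 exon bases with Cs5g02450, a gene of unknown function. The pair held 527 and 526 reads in the control and 756 each in light drought. With a stranded kit, such equal counts would arise if strand was ignored in counting, which was not tested. In that case reads of all 3 WRKY genes may include reads of their partners. The log2 ratio of Cs5g02440, 0.52, cannot be told apart from that of its partner, 0.53. The other overlaps were smaller. WRKY33 shared 394 of 2687 bases with Cs6g09410, which had 66 and 70 reads and a log2 ratio of 0.11, and WRKY76 shared 719 of 1718 bases with Cs7g06340, which had 522 and 417 reads and a log2 ratio of -0.23. WRKY33 itself held 64 and 114 reads. Without these 3 genes, 8 of 11 WRKY genes had ratios above 0, and the median log2 ratio was 0.29.

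NAC83 (Cs2g13920, chromosome 2, 10621963 to 10623396) was the most abundant of the 41 genes. Its Arabidopsis namesake, also called VNI2, represses xylem vessel formation and takes part in leaf ageing. It stood at 26.9 RPKM from 1087 control reads and 42.5 from 1656 light drought reads. The log2 ratio was 0.65 with a counting interval of 0.55 to 0.77, so the level was higher in light drought by less than 2-fold. NAC71 (Cs7g22920, chromosome 7, 21140670 to 21144792), in Arabidopsis a factor of tissue reunion in cut stems, came next in the control. It stood at 17.3 RPKM in the control and 12.8 in light drought, with a log2 ratio of -0.42 and a counting interval of -0.54 to -0.33.

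The NAC genes with the lowest ratios at appreciable levels were an unnamed pair. Cs6g21520 (chromosome 6, 20631376 to 20633216) stood at 8.52 RPKM from 443 control reads and 2.41 from 121 light drought reads. Its log2 ratio of -1.63, 3.10-fold lower, had a counting interval of -2.13 to -1.53. Cs5g10870 (chromosome 5, 7684698 to 7686704) stood at 7.99 RPKM from 493 reads and 3.20 from 191 reads, with a log2 ratio of -1.20 and a counting interval of -1.57 to -1.08. In control stems both ranked just below NAC83 and NAC71, and in light drought both lay below NAC22 (Cs8g01860), which stood at 2.82 in the control and 4.14 in light drought. The log2 ratio of NAC22 was 0.48.

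The other 5 NAC genes stayed under the minimum of 1 RPKM in both libraries. NAC45 is known in Arabidopsis for the loss of the nucleus in maturing sieve elements of the phloem, and 2 genes carry this description. One of them, orange1.1t03242, stood at 0.758 RPKM from 34 control reads and 0.0922 from 4 light drought reads, with a counting interval of -4.99 to -1.55. The other, Cs7g11190, stood at 0.561 and 0.871 RPKM, with a counting interval of -0.34 to 1.64. The pair described as NAC45 thus had ratios on opposite sides of 0, and the counting interval excluded no change for the first alone. NAC21/22 (Cs5g15470), an auxin-responsive factor of lateral root formation in Arabidopsis, stood at 0.312 and 0.775 RPKM, from 10 and 24 reads. Cs8g14700 and Cs7g22440, both unnamed, had counting intervals that included no change. The second is annotated with the C-terminal domain alone, so the rule took it in without a NAC DNA-binding domain.

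**Figure D2:**
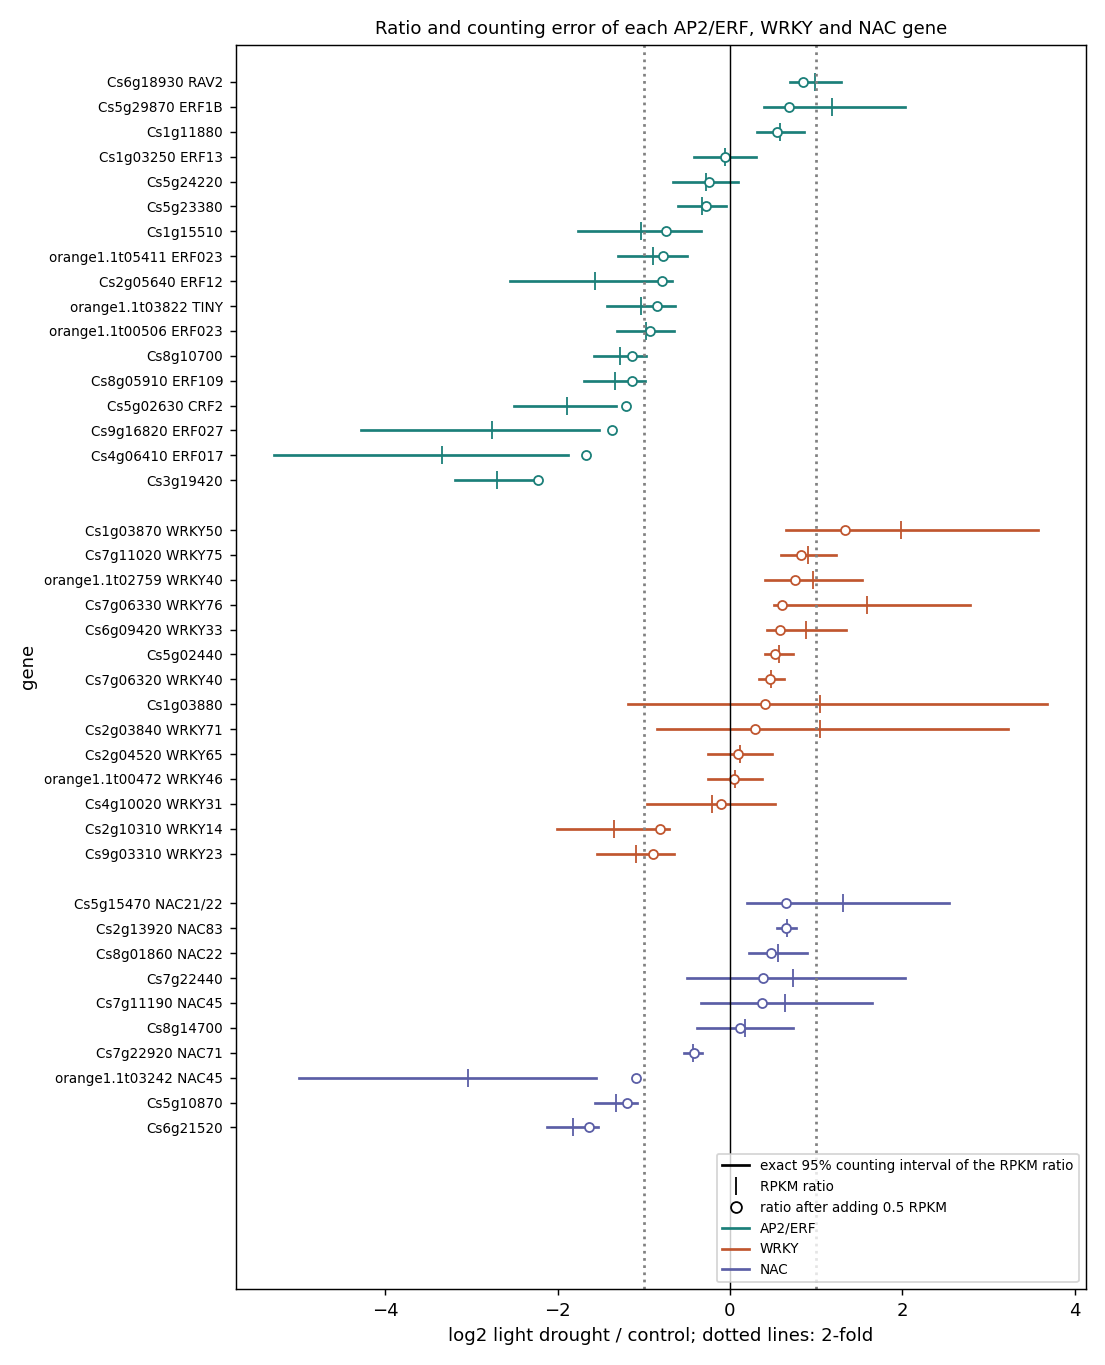
Log2 of light drought over control for the 41 genes, 1 row per gene in the same order; lines are exact 95% counting intervals of the RPKM ratio, ticks the RPKM ratio, open circles the ratio after adding 0.5 RPKM, and dotted lines 2-fold. The intervals of abundant genes such as NAC83 (0.55 to 0.77) are narrow, while those of genes with few reads, such as ERF017 (-5.28 to -1.88), span several log2 units.

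For 31 of the 41 members no change lay outside the counting interval, and for 10 it lay inside. Among members that reached the minimum it did so for 27 of 31, beside 82.9% of such genes in the annotated table and 50.4% of all such genes. With each read taken as independent, counting error alone was thus exceeded for most members, as for most genes of the annotated table. If both mates of a read pair were counted, the intervals are too narrow and these counts could be lower. A place in the annotated table already depends in part on these libraries, so a share above that of all genes says little about the families. The intervals compare the 2 libraries and not the conditions. An RPKM of 10 or more in either library was reached by 5 members, which were NAC83, NAC71, the WRKY40 gene Cs7g06320, the ERF023 gene orange1.1t00506 and Cs1g11880. Of these 5, 3 had log2 ratios above 0, and each of the 5 was within 2-fold. Summed over each family, RPKM was 67.1 in the control and 44.3 in light drought for AP2/ERF, 33.6 and 45.7 for WRKY, and 66.5 and 68.4 for NAC.

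Gene structure, which the rule did not use, differed between the families. A single exon was annotated for 13 of the 17 AP2/ERF genes, 1 of the 14 WRKY genes and none of the 10 NAC genes, beside 16.5% of all 23159 genes. The 13 single-exon AP2/ERF genes had a median log2 ratio of -0.85 and the 4 with several exons one of -0.26. By position, 7 members lie on chromosome 5, 6 on chromosome 7 and 6 on unplaced sequence, and the other 22 are spread over the other chromosomes. Adjacent members, with no gene model between them, were the WRKY pairs on chromosomes 1 and 7 described above, and in both pairs each gene had a ratio above 0.

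The same annotated table holds 67 genes of other transcription factor families, which are Myb-like, helix-loop-helix, homeobox, bZIP, GATA and C2H2 zinc finger genes. Of the 55 that reached the minimum, 20.0% were at least 2-fold lower and 10.9% at least 2-fold higher, together 30.9%. No change lay outside the interval in 80.0% of the 55. Ratios below 0 were found for 58.2%, and their median log2 ratio was -0.21. The AP2/ERF median of -0.81 lay below this and the WRKY median of 0.49 above it. With 1 library per group these differences could not be tested.

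**Figure D3:**
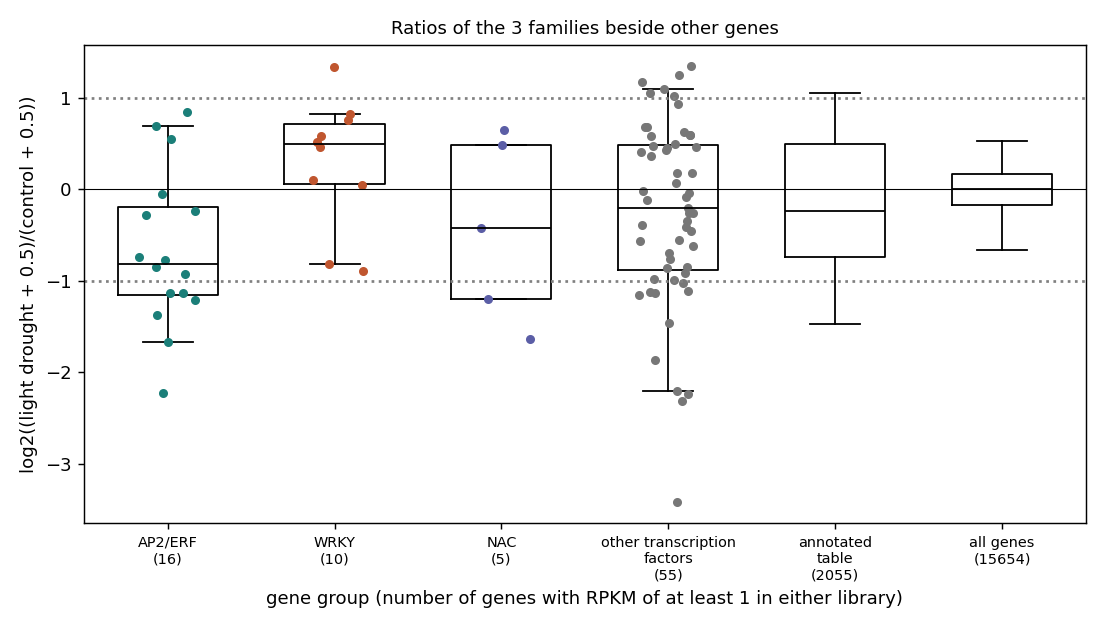
Log2 ratios of genes with an RPKM of at least 1 in either library, for the 3 families, other transcription factors, the annotated table and all genes; boxes show the median and quartiles, whiskers the 5th and 95th percentiles, points single genes, and dotted lines 2-fold. The AP2/ERF box lies mostly below 0 (median -0.81) and the WRKY box above it (median 0.49), while the all-gene median is 0.0024.

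Genes of pathways in which these families act were sought by description text in the annotated table alone, with the members left out. Genes of these pathways outside its 2568 genes could not enter. The counts below are to be read beside the 14.9% of the annotated table at the minimum that were at least 2-fold lower and the 5.99% that were higher, or 2.12% and 0.882% of the full table. The ethylene list held 4 genes, and 1 of the 2 that reached the minimum was at least 2-fold lower. That gene was an ACC oxidase (Cs2g02500), the last enzyme of ethylene synthesis, at 10.7 RPKM in the control and 1.50 in light drought. EIN3-binding F-box protein 1 (Cs4g17960), which in Arabidopsis marks the ethylene regulator EIN3 for breakdown, was nearly level at 0.990 and 1.16 RPKM. Of 10 genes at the minimum in the abscisic acid list, 4 were at least 2-fold lower and none higher. Several of the 10 were matched as protein phosphatases, not by the name of the hormone. Whether those act in abscisic acid signalling was not tested, so it is not a list of abscisic acid genes alone. The 4 lower genes included ABSCISIC ACID-INSENSITIVE 5 (Cs6g14970), a bZIP factor of the hormone response, with a log2 ratio of -2.31. Cs6g19380, an 8'-hydroxylase that inactivates abscisic acid, had one of -1.24.

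Genes of the salicylate and jasmonate defence list, a field of WRKY action, differed among themselves. Most were matched as chitinases, glucanases, pathogenesis-related proteins, lipoxygenases or allene oxide cyclases, not by the name of a hormone. Of 21 at the minimum, 14 had ratios below 0 and 7 above, while 3 were at least 2-fold higher and 1 lower. The median log2 ratio was -0.23, and the summed level of all 23 listed genes was 3486 RPKM in the control and 2384 in light drought. Most of that sum came from the endochitinase genes Cs8g01850 (1329 and 947 RPKM) and Cs8g01840 (1022 and 611 RPKM). The extremes were orange1.1t00634, a basic beta-glucanase, at 2.11 and an allene oxide cyclase (Cs6g18910), of jasmonate synthesis, at -1.25. The list of WRKY partners held calmodulin-like proteins, a calcium- and calmodulin-dependent kinase and a MAP kinase kinase kinase. Of these 4 genes, 2 reached the minimum. Calmodulin-like protein 1 (Cs8g05870) had a log2 ratio of 0.91 and calmodulin-like protein 3 (Cs5g22810) one of -0.96.

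The dehydrin and LEA list, a group often under DREB control, held 7 genes at the minimum, none of them described as a dehydrin. Ratios were below 0 for 4 and above for 3, with 2 at least 2-fold lower and 1 higher. The most abundant, LEA protein Lea5 (Cs9g04210), stood at 4085 RPKM in the control and 5955 in light drought, with a log2 ratio of 0.54. LEA protein D-29 (Cs1g24210) had a log2 ratio of -2.17. Cs9g07670, an early light-induced protein of the chloroplast that this list holds by its text, had one of 1.82. The secondary wall list, a field of NAC action, matched cellulose synthase, fasciclin and COBRA descriptions. Its genes at the minimum were below 0 in 10 of 11 cases, with a median log2 ratio of -0.83. In this list fasciclin-like arabinogalactan protein 17 (Cs7g23810) had a log2 ratio of -1.36 and cellulose synthase-like protein G3 (Cs5g01970) one of 1.17. Fasciclin-like arabinogalactan protein 11 (Cs6g04310) was nearly level at -0.14, with a counting interval of -0.83 to 0.42. The list also took in subunits 1 and 2 of cellulose synthase A, which belong to primary walls in Arabidopsis. Cellulose synthase-like and COBRA genes entered by their text too, so it is not a list of secondary wall genes alone or of NAC targets. Of the 3 senescence genes none was 2-fold apart. They were the cysteine protease XCP1 (Cs8g01170), known from xylem, with a log2 ratio of -0.80, and a pair of pheophytinases of chlorophyll breakdown at 0.07 and 0.57.

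**Figure D4:**
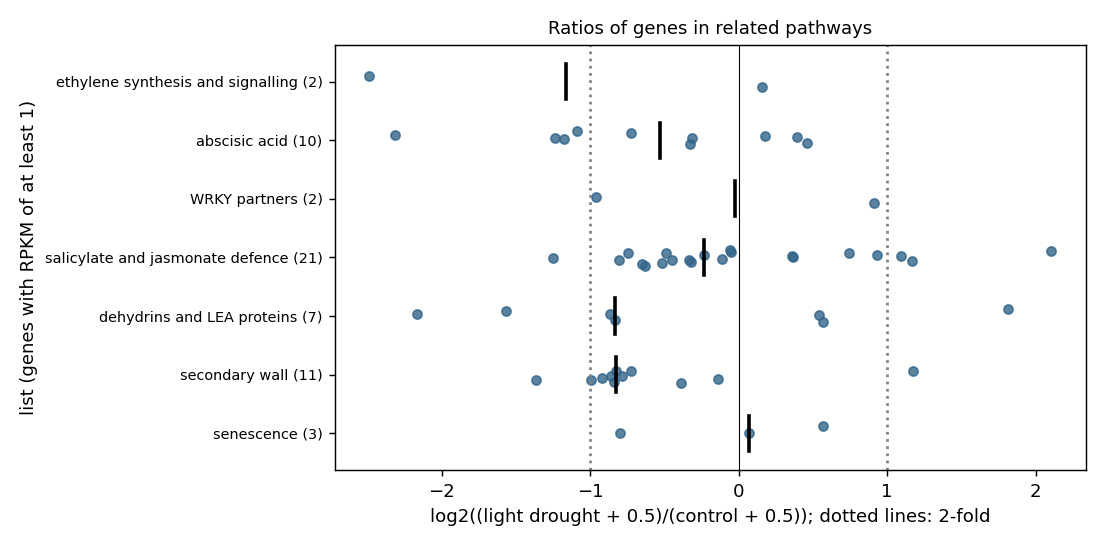
Log2 ratios of genes in 7 related lists, for genes with an RPKM of at least 1 in either library; each point is a gene, black bars are list medians, and dotted lines are 2-fold. Genes of the secondary wall list, matched by text, lie below 0 in 10 of 11 cases, and those of the defence list spread to both sides from -1.25 to 2.11.

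Genes matched by text as markers of tissues and dividing cells, again in the annotated table alone, also differed between the libraries. Of genes at the minimum, 43.6% of that table and 50.4% of the full table had ratios above 0. Ratios below 0 were found for 56.4% and 49.6%. All 22 green tissue markers had log2 ratios above 0, and their summed level was 508 RPKM in the control and 744 in light drought. The dividing-cell list matched cyclin, histone and tubulin descriptions. All 13 of its genes that reached the minimum, of 15 matched, had ratios below 0. For some, such as a histone H2A (Cs8g18050, -0.65 to 0.45), the counting interval included no change. The sum over the 15 was 139 RPKM in the control and 86.5 in light drought. Its highest levels were those of tubulins, such as Cs6g07480 at 35.6 and 24.5 RPKM, so the sum is not a measure of dividing cells alone. The 10 genes matched as xylem and secondary wall markers, all of them also in the secondary wall list above, summed to 175 and 111 RPKM. Their highest levels were those of the cellulose synthase-like gene Cs9g08730 and of subunits 1 and 2 of cellulose synthase A. This sum is thus not a measure of xylem alone. The 4 genes matched as phloem markers summed to 6.77 and 7.70 RPKM. The 7 genes with root in their descriptions summed to 91.2 and 73.8 RPKM, and the pollen and anther list held 1 gene, at 6.99 and 2.91. None of these markers was at 0 in either library, and their part in the levels of the AP2/ERF, WRKY and NAC genes was not tested.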

How the data were processed

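Values were RPKM deposited by the authors for 23159 genes in 1 control and 1 light drought library of mandarin stems, with merged exon lengths per the file headers. Libraries were made from 2 µg of total RNA with a kit for stranded mRNA, per the labels' protocols. Per the submitters' processing notes, Trimmomatic 0.36 was used. Aligner, read counter and genome build were not given in the sources used here. Reads were recovered as RPKM times length. They came out whole, to within 0.01, in 100% of values above 0, and counting intervals use these reads. Since reads carry no molecular identifiers and so need not be separate molecules, intervals cover counting error only, with each read taken as independent. If both mates of a read pair were counted, which was not tested, the intervals are too narrow.

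Members and lists were chosen with earlier results of these data known. The authors' statistics were not used. No p-value was computed. The text names all members 2-fold apart, the most abundant and extreme ones of each family, and up to 2 genes per pathway list. Most other members, and a few further list genes, are named outside this rule, chosen after their values were seen. The lists match text within the annotated table alone, so single genes can be chance matches and genes outside that table are missing.

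Alternatives were pseudocounts of 0.1 and 1, minimums of 0 and 5 RPKM, thresholds of 1.5-fold and 3-fold, and other scalings. The ratio and interval functions were checked on simulated reads drawn as independent, so this check does not cover mates counted apart. Software was scipy 1.17.1 and numpy 2.4.6 under Python 3.11.15, with matplotlib 3.10.9 for plots and pandas 2.3.3.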

Additional observations from a re-analysis of the deposited data

How the results depend on the processing

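No paired analysis was possible because only 1 control and 1 light drought library were given, so none could be left out either. The log2 ratio of each of the 41 genes kept its sign under both other pseudocounts and both rescalings. The counts of 9 members 2-fold apart, 1 higher and 8 lower, and the medians changed as follows. With a pseudocount of 0.1, 12 were apart, 2 higher and 10 lower, with WRKY14 and WRKY23 among the lower and ERF1B the added higher gene, and the AP2/ERF median was -0.96. With a pseudocount of 1, 6 were apart, 5 of them lower, with CRF2, ERF109 and ERF027 no longer 2-fold apart, and that median was -0.71. Without a minimum, the median of all members was -0.056 and the NAC median changed sign to 0.24, since 5 NAC genes of low level entered. With a minimum of 5 RPKM, 4 of 11 members were 2-fold apart, 4 lower and 0 higher, and the medians were -0.42 for all, -1.03 for AP2/ERF and -0.81 for NAC. Rescaling to equal RPKM sums gave an AP2/ERF median of -0.94 and a NAC median of 0.25. That rescaling brought the RPKM sums, 658001 in the control and 677661 in light drought, to a larger common total. The added 0.5 and the minimum of 1 stayed fixed while all values rose. By this arithmetic single ratios moved too, and 37 members passed the minimum in place of 31. A 1.5-fold threshold gave 20 members, 6 higher and 14 lower, and a 3-fold threshold 3, 0 and 3. A minimum on the mean RPKM of both libraries, chosen after seeing the data, gave 7 members, 1 higher and 6 lower. Leaving out members that share exon bases with another gene, also chosen after seeing the data, left 29 members at the minimum, with a median of -0.42 for all and 0.28 for WRKY. Under the other alternatives the WRKY median stayed between 0.43 and 0.52. For 9 members a library held 10 reads or fewer, which limits what their ratios can show.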
